A study of Mus musculus with 4 samples.

Results

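Collagens, laminins, their partner matrix proteins and the integrins that bind them were followed in murine embryonic stem cells (CM7/1) that carried Hey1 or Hey2 for overexpression. Members were all probe sets whose single gene symbol in the platform annotation was among 48 listed genes, and 47 of the 48 had such probe sets, 104 in all. Fbn1, the fibrillin gene, had none and was not analysed here. The whole array named 18194 genes on 45101 probe sets. The 4 Affymetrix arrays held total RNA of the Hey1 line without induction, the Hey1 line after 1000 ng/ml doxycycline for 48 h, the Hey2 line without induction and the Hey2 line after the same doxycycline treatment. All 4 samples carry an overexpression label, so the uninduced controls are cells of the same line without doxycycline, and no array of cells without a Hey label was among them. The labels do not name the promoter that drives the Hey genes or how many clones make up a line. Each group had 1 array, and by the design text the study has no replicates. With a single array on each side, no replicate error can be set beside a difference, no p-value is attached to it, and precision is limited by how few arrays there are.

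The extracellular matrix has distinct layers. Fibrillar collagens are the rope-like proteins of connective tissue, made by fibroblasts such as the feeder cells often grown under stem cells. Basement membranes are thin sheets in which a laminin network and a collagen IV network are joined by nidogens and heparan sulphate proteoglycans. Embryonic stem cells are known to make laminin and to bind it through integrins, receptors that pair an alpha with a beta chain and connect the matrix to the actin cytoskeleton through adaptor proteins. Hey1 and Hey2 are basic helix-loop-helix repressors downstream of Notch receptors.

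The stretches upstream of a pair of members are shown, and their part in the values was not tested. Pcolce2 was the member with the largest difference within both lines, and Itgb5 the member with the largest difference between the lines. Each sequence is the 250 bases before the RefSeq start of the gene (build GRCm38.p6), 5′ to 3′ on the plus strand, which is the gene's own strand, with matches to the general E-box CANNTG in capitals. The Pcolce2 stretch lies at chr9:95637378-95637627 and the Itgb5 stretch at chr16:33829415-33829664, both just upstream of the first exon.
Pcolce2: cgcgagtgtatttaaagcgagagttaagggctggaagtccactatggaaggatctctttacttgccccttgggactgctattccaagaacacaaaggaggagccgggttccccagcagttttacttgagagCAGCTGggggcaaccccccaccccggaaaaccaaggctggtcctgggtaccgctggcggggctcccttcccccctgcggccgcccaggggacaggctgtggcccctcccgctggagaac
Itgb5: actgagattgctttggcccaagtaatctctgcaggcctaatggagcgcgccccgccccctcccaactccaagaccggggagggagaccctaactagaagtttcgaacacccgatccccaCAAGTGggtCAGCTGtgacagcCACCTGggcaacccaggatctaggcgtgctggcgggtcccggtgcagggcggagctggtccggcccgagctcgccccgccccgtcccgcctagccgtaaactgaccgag
The Pcolce2 stretch held 1 match to CANNTG and the Itgb5 stretch 3, and neither held CACGTG or CACGCG on either strand. The table of RefSeq promoters had 39 windows for 33 of the 48 members. CACGTG, which is also a CANNTG, stood in 2 of the 39 windows, both of Fbln1, and in 6.02% of the 32851 windows of all genes. CACGCG stood in 0 of the 39 and in 7.62% of all, and CANNTG in 20 of the 39 (51.3%) and in 66.2% of all. Both strands were searched. A match is a stretch of letters and does not show that a factor binds there, and its absence holds for these 250 bases alone.

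Facts of the arrays that bear on every value are these. Levels are log2 RMA values, and a level above 6.05, the median of all values, on at least 1 array was required of a gene for the counts, which left 12098 genes. Over those genes the log2 differences had a scaled median absolute deviation of 0.16 within the Hey1 line, 0.22 within the Hey2 line and 0.29 between the uninduced arrays. The Hey1 probe set read 6.73 and 6.51 in the Hey1 line and the Hey2 probe set 4.25 and 4.34 in the Hey2 line, uninduced and labelled induced. These values do not show the labelled overexpression, and no label says whether these probe sets read the introduced genes. Directions below are therefore those of the array labelled induced. All 12 embryonic stem cell markers listed, Pou5f1 and Nanog among them, lay above the filter on all 4 arrays.

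Of the 47 members measured, 31 passed the level filter, 27 of them on all 4 arrays, and 16 lay below it on every array. Of all 18194 genes named, 12098 passed, a share close to that of the members. Members that passed on 1 to 3 arrays were Col1a2, Col4a6, Lama2 and Itga2, which lay near the filter throughout. Lama2 passed through the 2 uninduced arrays, and Col4a6 and Itga2 through the uninduced Hey2 array alone. For the latter pair the filter itself favours a lower value within the Hey2 line and a higher Hey2 value between the uninduced arrays. The fibrillar and other feeder-type genes were mostly on the low side. Of 14 measured feeder-type genes 9 lay below the filter on every array, among them Col1a1 and Col3a1, the main collagen chains of skin and vessel wall, the periostin gene Postn, the small proteoglycan genes Dcn and Lum, and the crosslinking enzyme gene Lox. Those that passed were Col1a2, Col5a1, Col6a2, the fibulin gene Fbln1 and Pcolce. Of 18 basement membrane genes 15 passed, and Col4a5, Lama3 and Lama4 did not. Of 11 integrin genes 8 passed, and Itga1, Itgb3 and Itgb4 did not. Probe sets differ in how strongly they bind, so a low level is a position on the array and does not show that a gene is silent.

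**Figure D1:**
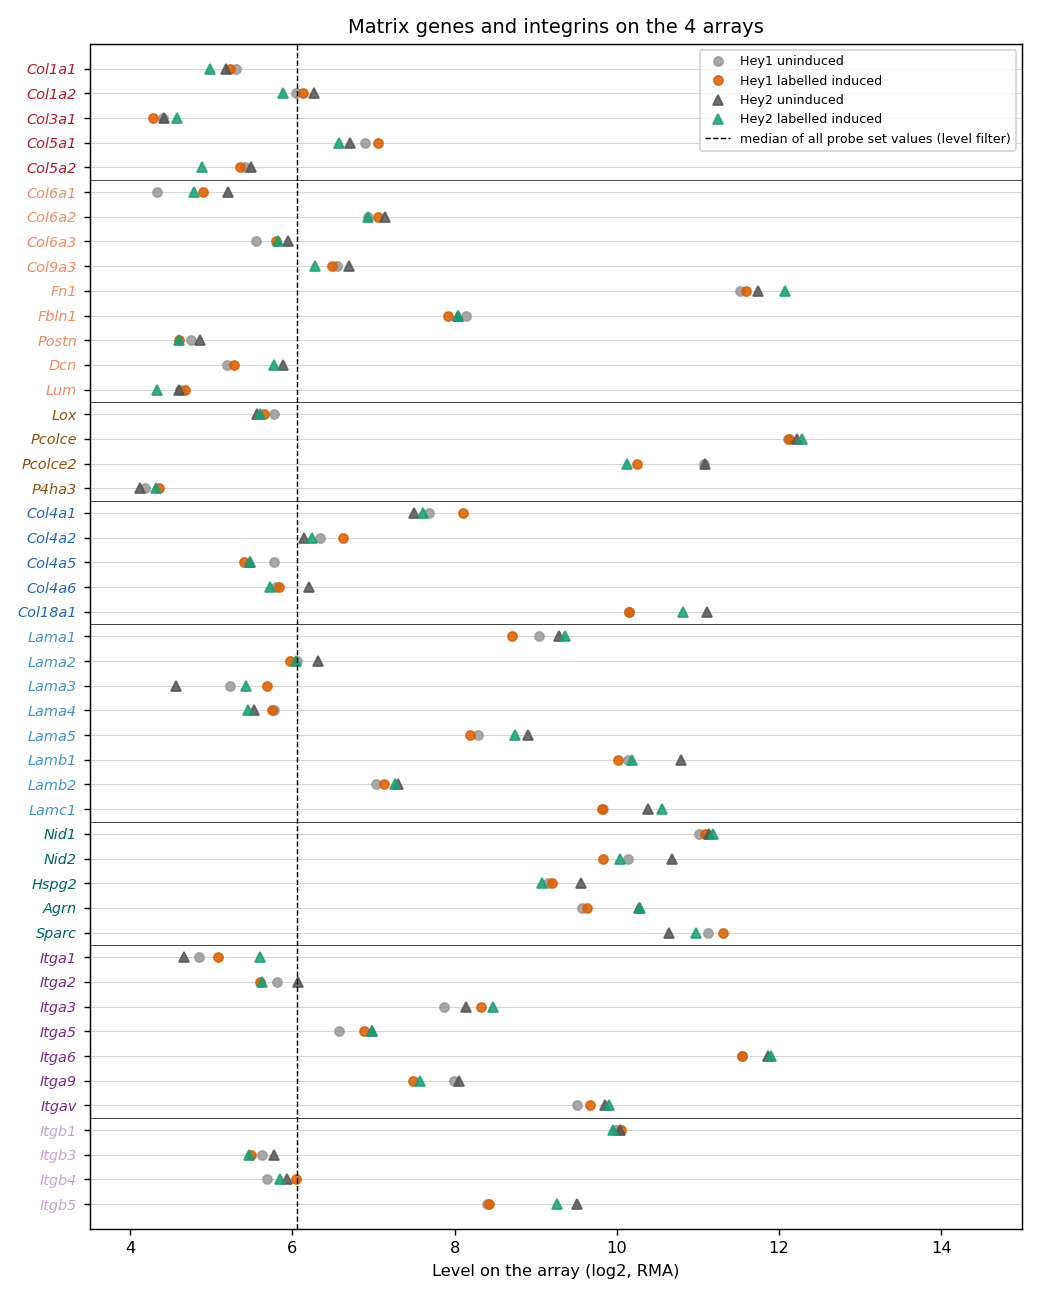
The horizontal axis is the log2 RMA level and each row a gene of the 47 measured, with 1 point for each of the 4 arrays (circles, Hey1 line; triangles, Hey2 line). Gene names are coloured by role in 8 blocks separated by lines, from fibrillar collagens at the top to integrin beta chains at the bottom, and the dashed line is the level filter of 6.05. The points of 16 genes lie wholly left of that line, and levels are to be compared along a row and not between rows.

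Markers of other cells that could carry these genes were measured in the same way. Of 15 fibroblast markers outside the members 5 passed the filter, and the log2 of their summed linear level lay between 9.36 and 9.82 on the 4 arrays. Pdgfra, Pdgfrb, Prrx1, Cdh11 and Fap were among the 10 below the filter on every array. The 5 that passed were Thy1, Mfap5, Ddr2, Prrx2 and Twist1. Thy1 was higher in the Hey1 line (7.13 and 7.80) than in the Hey2 line (5.51 and 5.73). Mfap5 was also higher there (6.47 and 6.77) than in the Hey2 line (6.05 and 6.15). Ddr2 read 6.87 and 6.78 in the Hey1 line and 7.06 and 6.51 in the Hey2 line. Prrx2 lay between 6.23 and 6.44 and Twist1 between 6.12 and 6.43 on the 4 arrays. Of 15 markers of primitive and parietal endoderm, the embryonic tissue that deposits a thick basement membrane, 6 passed, with a summed level between 9.71 and 9.81. They were Sox7, Sox17, Hnf4a, Amn, Ttr and Apoa1, while Gata4 and Gata6 were below the filter on every array. Sox7 read 6.03 and 6.51 in the Hey1 line and 5.44 and 6.62 in the Hey2 line, uninduced and labelled induced. The Hey2 line difference of 1.18 was past 2-fold, as for 0.926% of all genes. The other Sox7 probe set, at levels of 4.72 to 5.03, had -0.17 and 0.10 within the lines. The part of Sox7 in the matrix values was not tested. Of 8 endothelial markers 5 passed (9.55 to 9.92) and of 10 trophoblast markers 6 (11.18 to 11.43). In bulk RNA fewer cells of a type and less RNA per cell cannot be told apart.

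Within the lines, Pcolce2 stood apart from all other members that passed. This gene encodes a secreted enhancer of the protease that trims procollagen before fibrils form. Pcolce2 read 11.08 and 10.24 in the Hey1 line, uninduced and labelled induced, and 11.09 and 10.12 in the Hey2 line. The 2 uninduced values differed by 0.01. Of all 12098 genes, 0.223% were lower by 1.5-fold in both lines. The value was 1.78-fold lower in the Hey1 line and 1.95-fold lower in the Hey2 line. Pcolce2 has 1 probe set on the array, so no second reading of it exists. Its relative Pcolce, which has the same role in procollagen trimming, differed by no more than 0.07 within a line by the probe set used. That probe set read 12.11 and 12.12 in the Hey1 line and 12.22 and 12.29 in the Hey2 line. The other Pcolce probe set had 0.10 and 0.07 within the lines.

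In the Hey1 line Pcolce2 was the single member of the 31 past 1.5-fold, in a comparison where 2.42% of all genes passed that fold and 0.587% did so on the lower side. No member reached 2-fold, where 0.471% of all genes did. The median difference of the members was 0.03, beside -0.01 for all genes, and 19 of the 31 were above 0. The largest higher values were those of Itga3 (0.46), of Col4a1 (0.42) and Col4a2 (0.29), the chains of the common collagen IV trimer, and of Itga5 (0.31). Col4a1 read 7.68 and 8.11 in this line, uninduced and labelled induced, and 7.50 and 7.60 in the Hey2 line. Col4a2 read 6.33 and 6.63, and 6.14 and 6.25 in the Hey2 line. For both genes the Hey1 array labelled induced was the highest, and the other probe set of Col4a1 had 0.12 in the Hey1 line. On the lower side, the integrin chain gene Itga9 read 7.99 and 7.48, the laminin chain gene Lama1 9.04 and 8.71 and the nidogen gene Nid2 10.14 and 9.83. All of these stayed within 1.5-fold.

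In the Hey2 line Pcolce2, Nid2 and Lamb1 were past 1.5-fold, all lower. They were 3 of the 31 members where 5.48% of all genes passed that fold and 2.46% on the lower side, and again no member reached 2-fold (0.926% of all genes). Nid2 read 10.68 and 10.03, uninduced and labelled induced, so that the labelled induced value came close to the uninduced value of the Hey1 line, 10.14. Lamb1, which encodes the beta chain of the main laminin trimers, read 10.79 and 10.18, beside 10.13 and 10.02 in the Hey1 line. For both genes the uninduced Hey2 array was the highest of the 4. When the uninduced Hey1 array served as the reference, the value was 0.05 for Lamb1 and -0.10 for Nid2, and the call of both was lost. Of 4 Lamb1 probe sets 3 had negative differences in the Hey2 line (-0.61, -0.59 and -0.43), and the fourth, with levels of 4.44 to 4.76, had 0.31. Nid2 has 1 probe set.

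Other basement membrane genes differed less in the Hey2 line. The perlecan gene Hspg2 had -0.48 and Col4a6 -0.47, although the other probe set of Hspg2 had 0.01. On the higher side stood the fibronectin gene Fn1 (11.74 and 12.07) and Sparc, which encodes a collagen-binding matricellular protein (10.64 and 10.97, beside 11.12 and 11.31 in the Hey1 line). The second probe set of Fn1 had 0.51 there and -0.13 in the Hey1 line. Of 3 Sparc probe sets 2 had 0.33 and 0.42, and the one at a lower level had -0.33. The median of the members was -0.09, beside -0.02 for all genes, and 18 of the 31 were below 0. Col4a6 and Itga2 are among the 18, and without the level filter 29 of the 47 were below 0. In the Hey2 line the 3' probe set of Tfrc, a control for RNA quality, exceeded the 5' probe set. The gap was 0.67 (log2) without doxycycline and 0.96 with it, beside 0.95 and 0.84 in the Hey1 line. The other controls had 0.01 and 0.03 (Gapdh), 0.39 and 0.42 (Actb) and 1.33 and 1.56 (Pcx) in the Hey2 line. The part of RNA quality in these values was not tested.

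Some members below the level filter had larger differences, which lie between low values and are uncertain in size. Itga1, the alpha chain of a collagen receptor, read 4.85 and 5.08 in the Hey1 line and 4.66 and 5.60 in the Hey2 line, and its other probe set had -0.07 there. Lama3 read 5.23 and 5.69 in the Hey1 line and 4.56 and 5.43 in the Hey2 line, and its other probe set had -0.32 and 0.32. Col5a2 read 5.42 and 5.36 in the Hey1 line and 5.49 and 4.88 in the Hey2 line, where its other probe set read 4.51 on both arrays. These 3 genes were past 1.5-fold in the Hey2 line alone. Counted without the level filter, 6 of 47 members were past 1.5-fold in the Hey2 line, where 4.68% of all genes were. In the Hey1 line the count without the filter was 1 of 47 (2.21% of all genes).

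**Figure D2:**
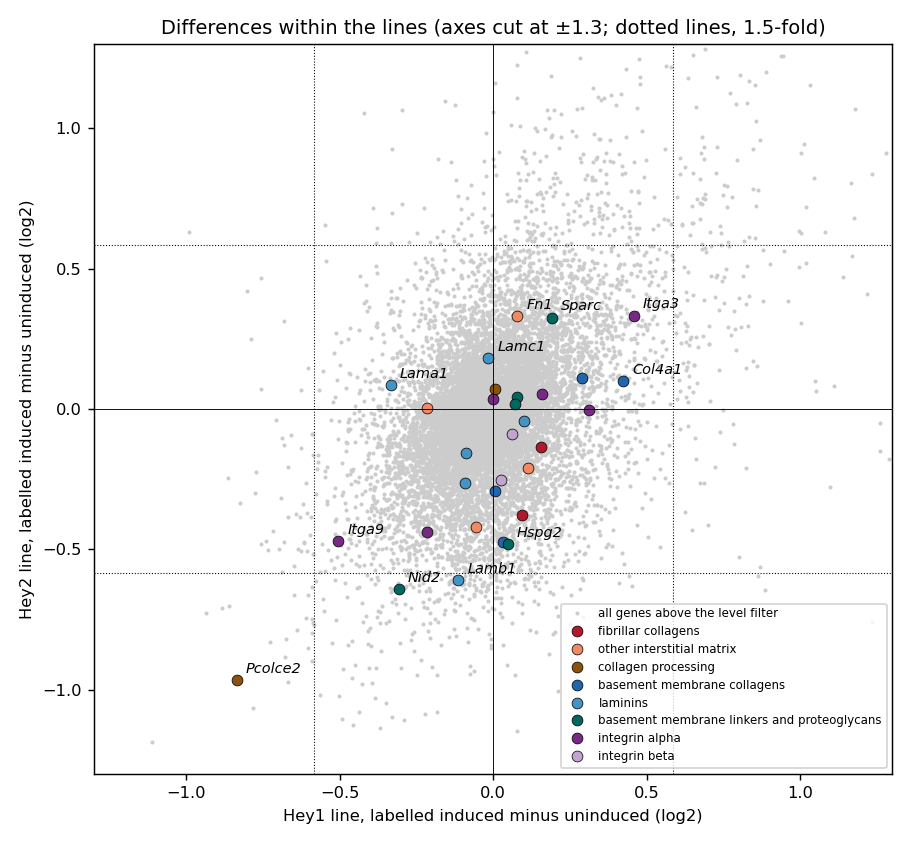
The horizontal axis is the log2 difference (labelled induced minus uninduced) in the Hey1 line and the vertical axis the same in the Hey2 line. Grey points are all 12098 genes above the level filter that fall inside the axes, coloured points the 31 members by role, and dotted lines mark 1.5-fold. Of the members Pcolce2 lies farthest to the lower left (-0.83 and -0.97), and most others lie near the centre.

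Feeder-type genes and basement membrane genes did not separate within the lines. In the Hey1 line the 5 feeder-type genes that passed had a median of 0.09, the 15 basement membrane genes 0.03 and the 8 integrin genes 0.04. In the Hey2 line the medians were -0.13, -0.04 and -0.05. The medians of all genes were -0.01 and -0.02. Over all genes measured, whether or not they passed, the medians were 0.04 for 14 feeder-type and 0.02 for 18 basement membrane genes in the Hey1 line, and -0.17 and -0.02 in the Hey2 line. No test was made of these lists.

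The response common to both lines was fitted with limma over all 12098 genes, with a block for the line, a fit that treats Hey1 and Hey2 induction as repeats of 1 treatment. No member and no other gene passed an adjusted p of 0.05, so that 0.0% of genes were called. At an unadjusted p of 0.05 limma gave 6 of the 31 members (19.4%), 4 lower and 2 higher, where it gave 13.2% of all genes. Itga2, among the 4 lower, passed the level filter through the uninduced Hey2 array alone, which favours that direction. The mean difference was -0.90 ± 0.09 for Pcolce2, with an adjusted p of 0.237 by limma, which no gene went below. Each ± is limma's SE, which draws on the spread of all genes and is not the spread between the 2 lines alone. When limma's prior variance was made robust and allowed to depend on level, it called 2 members, Pcolce2 (adjusted p = 5.12e-05) and Nid2 (adjusted p = 0.013). Nearly all genes called with this prior lay outside the members, and their number is given among the alternatives below. Over the alternatives run, the limma adjusted p of Pcolce2 ran from 5.12e-05 to 1.00. No label says that cells were cultured separately for each array, so the p-values measure no more than the spread between these samples, which may be technical.

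The integrin genes Itga9 and Itga3 were next in that fit. Itga9, a receptor chain for tenascin and other matrix ligands, was lower by 0.51 in the Hey1 line and by 0.47 in the Hey2 line (mean -0.49 ± 0.08, adjusted p = 0.264 by limma). Its values were 7.99 and 7.48 in the Hey1 line and 8.05 and 7.58 in the Hey2 line, uninduced and labelled induced. Another Itga9 probe set had -0.22 and -0.64 in the Hey1 and Hey2 lines, and the third had 0.32 and -0.20. Itga3, which encodes the alpha chain of a laminin receptor, read 7.87 and 8.33 in the Hey1 line and 8.14 and 8.47 in the Hey2 line (mean 0.39 ± 0.09, adjusted p = 0.301 by limma). Its other probe sets were lower in both lines, by -0.06 and -0.20 and by -0.26 and -0.47, so the direction of Itga3 depends on the probe set. Itga2, whose level lay near the filter, read 5.81 and 5.60 in the Hey1 line and 6.06 and 5.63 in the Hey2 line.

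The main laminin receptor chains differed little within the lines. Itga6 read 11.54 on both arrays of the Hey1 line and 11.87 and 11.90 in the Hey2 line. Itgb1, the beta chain shared by most of these receptors, read 9.99 and 10.05 in the Hey1 line and 10.04 and 9.95 in the Hey2 line. Itgav, the alpha chain of receptors for fibronectin and vitronectin, read 9.50 and 9.66 in the Hey1 line and 9.85 and 9.91 in the Hey2 line. Itga5, the alpha chain of the fibronectin receptor, read 6.57 and 6.89 in the Hey1 line and 6.99 and 6.98 in the Hey2 line. Lower probe sets of Itgb1, Itgav and Itga5 differed from those used in direction in the Hey2 line. For Itgb1 a probe set at a level of 3.46 to 4.11 had 0.65 there.

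The members left to account for were matrix genes. Col9a3 read 6.54 and 6.49 in the Hey1 line and 6.70 and 6.28 in the Hey2 line. Col6a2 lay between 6.93 and 7.14, Lamb2 between 7.03 and 7.30 and Lama2 between 5.96 and 6.31 on the 4 arrays. Below the filter, Col6a3 lay between 5.55 and 5.94. Col6a1 read 4.33 and 4.90 in the Hey1 line and 5.20 and 4.79 in the Hey2 line, which is 0.56 and -0.41 within the lines and 0.87 between the uninduced arrays. Col6a1 has 1 probe set.

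Further members were also read by probe sets that disagreed. Col1a2 read 6.04 and 6.13 in the Hey1 line and 6.27 and 5.89 in the Hey2 line. It had -0.38 in the Hey2 line by the probe set used and 0.67 by another at levels of 3.82 and 4.49. Col5a1 read 6.90 and 7.05 in the Hey1 line and 6.71 and 6.57 in the Hey2 line. It had -0.13 in the Hey2 line by the probe set used, and 0.44 and -0.62 by the others. Of the 47 members 34 have more than 1 probe set, and the figure of probe sets shows those of 10 genes.

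**Figure D3:**
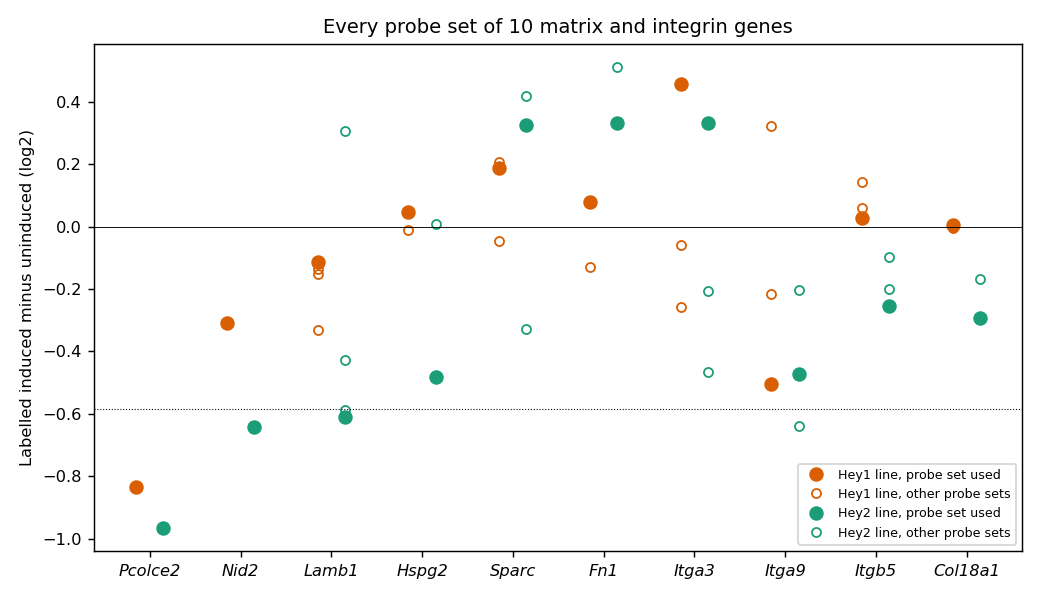
The vertical axis is the log2 difference (labelled induced minus uninduced), with 1 point per probe set, in orange for the Hey1 line and green for the Hey2 line. Filled points are the probe set used for the gene and open points its other probe sets, and dotted lines mark 1.5-fold. Pcolce2 and Nid2 have 1 probe set each and lie below 0 in both lines, while the 3 Itga3 probe sets lie on both sides of 0.

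Between the lines, the members differed more than within them. In uninduced cells 26 of the 31 members that passed were higher in the Hey2 line and 5 lower, with a median of 0.25, beside 0.03 for all genes. Col4a6 and Itga2, which passed through the uninduced Hey2 array alone, are among the 26. Without the level filter 34 of the 47 were higher and 13 lower, with a median of 0.20. Past 1.5-fold were 5 members, all higher in the Hey2 line, where 8.92% of all genes passed that fold and 4.5% on the higher side. They were Itgb5 (1.11), Col18a1 (0.96), Agrn (0.70), Lamb1 (0.66) and Lama5 (0.62). Itgb5 was the single member past 2-fold (1.96% of all genes). With probe sets averaged per gene, 3 members were past 1.5-fold in place of 5, and without the level filter 8 of 47 were (6.79% of all genes).

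Itgb5 encodes the beta chain of a vitronectin receptor. It read 8.40 and 8.43 in the Hey1 line and 9.51 and 9.26 in the Hey2 line, uninduced and labelled induced. The Hey2 line was 2.16-fold higher in uninduced cells, and the other 3 probe sets had log2 differences of 0.81 to 0.96. In labelled induced cells those 3 had 0.47 to 0.81, the lowest under 1.5-fold. Col18a1, the basement membrane collagen whose end fragment is endostatin, read 10.15 on both arrays of the Hey1 line and 11.11 and 10.81 in the Hey2 line. Its other probe set had 1.12 in uninduced and 0.96 in labelled induced cells. Agrn, the heparan sulphate proteoglycan agrin, read 9.56 and 9.64 in the Hey1 line and 10.27 and 10.28 in the Hey2 line. The other Agrn probe set, at levels of 4.54 to 4.77, had 0.24 in uninduced and -0.003 in labelled induced cells. By the probe sets used, Itgb5, Col18a1 and Agrn were higher in the Hey2 line by 1.5-fold in both states, as were 2.41% of all genes. The comparison of uninduced arrays and that of labelled induced arrays have no array in common.

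The 6 laminin genes that passed were higher in the Hey2 line in both states, as were 36.2% of all genes. The 2 below the filter were lower in both, Lama3 by 0.67 and 0.26 and Lama4 by 0.25 and 0.29. Lama5 and Lama1 encode alternative alpha chains, Lamb1 and Lamb2 beta chains and Lamc1 the gamma chain that most laminins share. Lama5 read 8.28 and 8.19 in the Hey1 line and 8.91 and 8.75 in the Hey2 line. Lamc1 read 9.83 and 9.82 in the Hey1 line and 10.38 and 10.56 in the Hey2 line. Lama1 read 9.04 and 8.71 in the Hey1 line and 9.28 and 9.36 in the Hey2 line. For each of these the lines did not overlap, and for Lamb1 the labelled induced values of 10.02 and 10.18 lay close together. The share of all genes whose lines did not overlap was not counted, so no weight can be given to it. The other Lamc1 probe set was higher in the Hey2 line by 0.03 in uninduced and by 0.55 in labelled induced cells. The laminin median was 0.41 between uninduced and 0.36 between labelled induced arrays over the 6 genes, and 0.26 and 0.15 over all 8 measured.

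The other basement membrane genes were divided. Of the 9 outside the laminins that passed, 4 were higher in the Hey2 line in both states, as were 36.2% of all genes. They were Col18a1, Agrn, Nid2 (0.54 and 0.20) and Nid1 (0.13 and 0.10). Another Nid1 probe set, at levels of 8.21 to 8.55, had 0.02 and -0.34, and the lowest had -0.35 and -0.31. Hspg2 had 0.41 between the uninduced and -0.12 between the labelled induced arrays (Hey2 line minus Hey1 line), whereas its other probe set was higher in both states, by 0.92 and 0.94. Col4a1 and Col4a2 were lower in the Hey2 line, by 0.18 and 0.20 in uninduced and by 0.50 and 0.38 in labelled induced cells. The other probe set of Col4a1 was higher by 0.16 in uninduced and lower by 0.19 in labelled induced cells. Sparc was lower in the Hey2 line in both states, with differences of -0.48 and -0.34, and its second probe set had -0.72 and -0.51. The third, at levels near 7, had 0.20 and -0.08.

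In cells labelled induced, 20 of the 31 members were higher in the Hey2 line. Past 1.5-fold were 5, all higher (6.71% of all genes, 3.95% on the higher side), namely Itgb5 (0.83), Lamc1 (0.74), Col18a1 (0.66), Lama1 (0.65) and Agrn (0.65). The median was 0.10, beside -0.02 for all genes. Higher in the Hey2 line in both states, at any size, were 19 of the 31 members (61.3%), 10 of the 15 basement membrane genes and 7 of the 8 integrin genes, where 36.2% of all genes were. Itga2, among the 7 integrin genes, passed the level filter through the uninduced Hey2 array alone. The feeder-type genes had medians of 0.10 in uninduced and -0.12 in labelled induced cells, the basement membrane genes 0.40 and 0.13 and the integrin genes 0.30 and 0.12. With a stricter filter at 8.31, which left Pcolce alone of the feeder-type genes, that list's value in labelled induced cells was 0.17. Each comparison between the lines shares 1 array with each comparison within a line, so their values are not independent of each other.

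**Figure D4:**
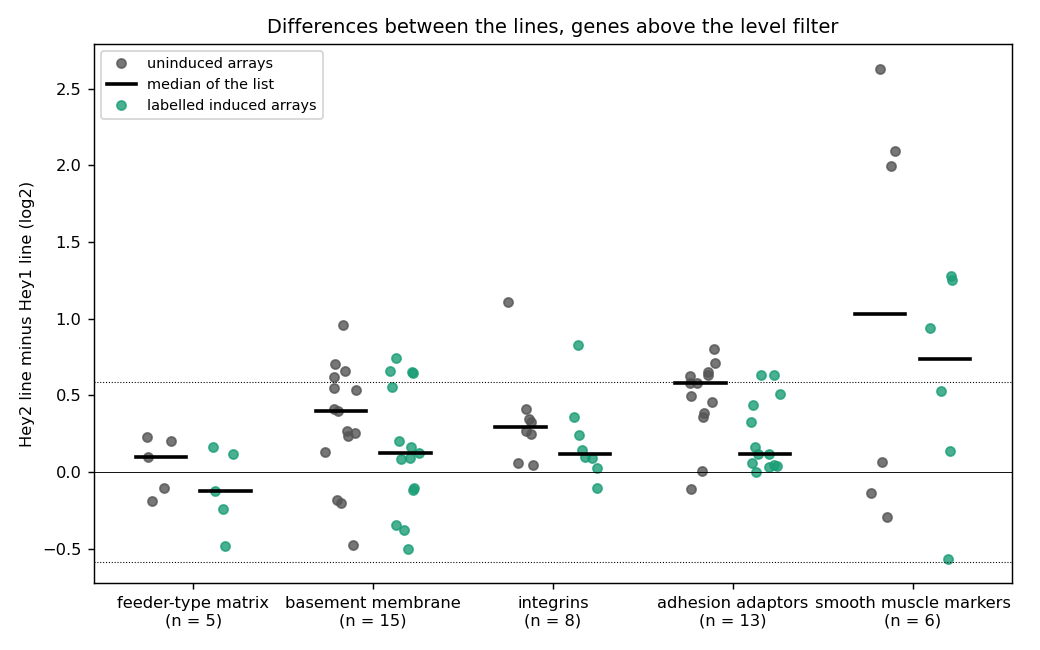
The vertical axis is the log2 difference of the Hey2 line minus the Hey1 line, with 1 point per gene above the level filter, grey for uninduced and green for labelled induced arrays. Black bars are the median of each list, n is its number of genes, and dotted lines mark 1.5-fold. In uninduced cells the medians were 0.40 for basement membrane genes, 0.30 for integrins and 0.58 for adhesion adaptors, beside 0.10 for feeder-type genes.

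Of 8 smooth muscle markers 6 passed the filter, and 3 of them, genes of the contractile cytoskeleton, were past 1.5-fold higher in the Hey2 line in both states. Acta2 read 7.18 and 7.05 in the Hey1 line and 9.81 and 8.30 in the Hey2 line. Tagln read 7.22 and 7.40 against 9.22 and 8.34, and Myl9 6.75 and 6.46 against 8.84 and 7.73. The others that passed did not share this. Des was lower in the Hey2 line by 0.14 and 0.57, Cnn1 had -0.30 and 0.53, and Lmod1 had 0.07 and 0.14. The log2 of the summed linear level of the list was 9.70 and 9.67 in the Hey1 line and 11.21 and 10.25 in the Hey2 line. The defining markers Myh11 and Actg2 lay below the filter on every array. The 5 endothelial markers that passed had a median of 0.29 between uninduced and -0.04 between labelled induced arrays. Among them Vwf had 1.82 and 1.27, and the defining marker Cdh5 lay below the filter on every array. Their part in the matrix and integrin values was not tested.

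The genes that connect integrins to actin were measured as a list of 15, of which 13 had probe sets and all 13 passed. In uninduced cells 12 of the 13 were higher in the Hey2 line, with a median of 0.58, beside 0.03 for all genes. Past 1.5-fold were 5 (4.5% of all genes on that side). These were Lims2 (0.80), the kinase gene Src (0.71), Parvb (0.65), Parva (0.63) and the paxillin gene Pxn (0.62). Pxn read 9.68 and 9.58 in the Hey1 line and 10.31 and 10.21 in the Hey2 line. In labelled induced cells 12 of the 13 were higher, with a median of 0.12, beside -0.02 for all genes. Past 1.5-fold were 2, Pxn and Parvb (both 0.63), beside 3.95% of all genes on that side. In both states 12 of the 13 were higher, as were 36.2% of all genes. Within the lines the medians were 0.07 and -0.10, and 0 and 1 of the 13 were past 1.5-fold, the latter Lims2, lower by 0.61 in the Hey2 line.

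Among enzymes that fold and crosslink collagen, Serpinh1 differed most. This gene encodes the collagen chaperone of the endoplasmic reticulum, which is also a heat shock protein. It read 7.76 and 8.99 in the Hey1 line and 7.36 and 8.19 in the Hey2 line, uninduced and labelled induced. The differences were 1.23 and 0.84, and its other probe set had 1.60 and 1.31 (mean 1.03 ± 0.13 by the probe set used, adjusted p = 0.237 by limma). Of 18 listed genes of this kind 14 passed, and Serpinh1 was the single one past 1.5-fold in either line. The prolyl hydroxylase subunit genes P4ha1 and P4hb had 0.15 and -0.02 in the Hey1 line and 0.12 and -0.03 in the Hey2 line. Between the lines P4ha1 was lower in the Hey2 line, with -0.67 for uninduced and -0.71 for labelled induced arrays. P4ha3, a member, lay below the filter on every array.

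The remaining genes of the pathway showed few differences. Of 20 other collagen genes 6 passed, and 0 of those were past 1.5-fold in either line. All 6 were lower within the Hey2 line, with a median of -0.33, beside -0.02 for all genes. Of 18 other laminin and integrin genes 6 passed, and Itga2b, the alpha chain of the platelet fibrinogen receptor, was lower by 0.68 in the Hey2 line. The dystroglycan gene Dag1, a laminin receptor outside the integrin family, was higher in the Hey2 line by 0.69 without induction and by 0.63 between the labelled induced arrays. Itgae, the alpha chain of a receptor for E-cadherin, went the other way, with -0.82 and -0.66. Of 16 matrix remodelling genes 10 passed. The gelatinase gene Mmp2 was higher by 0.39 in the Hey1 line and by 0.64 in the Hey2 line, and the metalloproteinase inhibitor gene Timp3 was lower by 0.68 in the Hey2 line. Adamts1 was higher by 0.87 in the Hey1 line. The membrane protease gene Mmp14 was higher in the Hey2 line than in the Hey1 line by 0.79 in uninduced and 0.72 in labelled induced cells.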

How the data were processed

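The authors deposited log2 RMA probe set values for 4 arrays, with 1 array per sample, per the submitters' processing notes. This method includes background correction and quantile normalisation. No version or chip description file is named in what was used here. A log2 scale was taken from the range of the values (2.67 to 15.2). Sorted values of the arrays agreed within 0.0024, so a shift of all genes together cannot be seen. Probe sets with a single symbol (34958, with 932 carrying several) were used. The gene identifiers of all 104 member probe sets matched RefSeq (GRCm38.p6), and 0 symbols changed.

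Each gene was represented by its probe set with the highest mean, and was compared if its highest value reached 6.05. Differences are labelled induced minus uninduced within a line, or Hey2 line minus Hey1 line, and genes past 1.5-fold or 2-fold were counted. A response common to both lines was estimated with limma 3.58.1 (R 4.3.3; 1 residual degree of freedom; Benjamini-Hochberg), after it was tested on simulated data. Python 3.11.15, numpy 2.4.6, pandas 2.3.3 and matplotlib 3.10.9 did the rest. Members and lists were chosen with earlier results of these data known. Values on all arrays were given for members past 1.5-fold within a line, the 4 on each side whose lesser difference over the lines was greatest, the 4 on each side that differed most between uninduced arrays, and members whose probe sets disagreed by more than 0.58. Other members, and genes outside the members that were not past 2-fold, were chosen after their values were seen. Alternatives were no filter, a filter at the 75th percentile (8.31), cyclic loess, median centring, a linear offset of 32, the mean of probe sets, the other line's uninduced array as reference, another limma prior, no block for the line, and each array left out together with the block.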

Additional observations from a re-analysis of the deposited data

Results flagged for a closer look

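In 9 genes of the pathway and marker lists beside the members, all above the level filter, the differences of the 2 lines had opposite signs, with a gap of at least 1.5-fold between them. These gaps were not tested, since each line gives 1 difference. The share of all genes with such a gap was not counted. The gap, Hey1 line minus Hey2 line on the log2 scale, was widest for the metalloproteinase gene Adamts1, at 1.43, from a difference of 0.87 (Hey1 line) and of -0.56 (Hey2 line). Of the pathway lists, the gap was 0.84 for Col16a1 (0.49 and -0.35), 0.64 for Lims2 (0.02 and -0.61), 0.60 for Src (0.43 and -0.17) and 0.59 for Col13a1 (0.48 and -0.11). Of the marker lists, it was 1.05 for Tagln (0.18 and -0.87), 0.95 for Hand1 (0.21 and -0.74), -0.83 for Cnn1 (-0.76 and 0.07) and -0.74 for Klf4 (-0.13 and 0.61). No member that passed the level filter had such a gap, and Col6a1, below the filter, had 0.56 and -0.41. For Lims2, Src, Col13a1, Cnn1 and Klf4, 1 of the 2 differences lay within the scaled median absolute deviation of its line (0.16 for Hey1, 0.22 for Hey2). Their opposite signs therefore rest on a small value.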

How the results depend on the processing

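Of 48 counts under an alternative, 39 were within 1.5 times the count given. With the other line's uninduced array as reference, 9 members were past 1.5-fold in the Hey1 line, and the medians were -0.095 for feeder-type, -0.37 for basement membrane and -0.26 for integrin genes. In the Hey2 line 6 members were past it, the integrin median was 0.38, and Lamb1 turned to 0.049. Without the level filter 6 members were past 1.5-fold in the Hey2 line and 8 between the uninduced arrays, where the mean of probe sets gave 3. Over the alternatives that kept each line's own reference, the basement membrane median ran from 0.26 to 0.54 between uninduced and from 0.089 to 0.38 between labelled induced arrays, and the integrin median from 0.25 to 0.32 and from 0.094 to 0.24. Within the lines these medians lay near 0, and all but the feeder-type median of the Hey1 line took both signs. The feeder-type median between labelled induced arrays ran from -0.12 to 0.17, the latter with the stricter filter. In the common response, whose block for the line pairs each labelled induced array with its uninduced array, limma called 4 genes with the stricter filter, 433 with the other prior, 2 of them members, and 0 without the block. Leaving out an array also meant dropping that block, and 1 treatment was then left with a single array that is assumed to vary like the others. The count of genes called ran from 0 to 5, the latter without the Hey2 array labelled induced, and that of members was 0.

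Of 605 alternative values of single genes, 34 moved by more than the scaled median absolute deviation and 2 gained a call. With 1 array per group an effect of a line cannot be told apart from that of a single array.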
